A study of Mus musculus with 12 samples.

Results

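Whole uteri from metestrus were compared with whole uteri from estrus, the stage that comes just before it in the estrous cycle of the mouse. The comparison took the 3 samples labelled metestrus and the 3 labelled estrus, 6 of the 12 samples in the series, and every sample was placed by its estrous cycle stage label. All donors were wild-type female mice of the Swiss Webster strain, an outbred stock, aged 8 to 12 weeks, with no treatment named, and the 6 uteri differed by label only in stage. Samples are named by stage and by the number in their title, so that estrus holds replicates 3, 4 and 5 and metestrus replicates 5, 6 and 7. The labels do not give how a stage was assigned, the hour of dissection or a processing batch, and they do not say outright that each sample came from a separate animal, so the p-values measure the spread between these samples.

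The estrous cycle is driven by ovarian steroids. Estrogen peaks ahead of estrus and acts on the uterine epithelium, which secretes fluid and defence proteins, while stroma and muscle swell. After ovulation a corpus luteum forms, progesterone becomes the leading steroid during metestrus and diestrus, and the receptor for progesterone acts in stroma and epithelium on genes such as those of the Indian hedgehog pathway. By this general account the comparison would span the change from a uterus last exposed to high estrogen to one at the start of the luteal phase. Hormone levels of these uteri were not among the data used here.

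Polyadenylated RNA was read by 3' TagSeq, which counts fragments from the 3' end of transcripts. The 6 libraries held 1652841 to 2200563 estimated counts, and levels are given as CPM, the deposited counts of a gene per 1000000 counts after scaling for library size and composition. A gene with no count in a library may still be there at up to 3 counts, which is 1.37 to 1.89 CPM in these 6 libraries and covers counting error only. The uterine genes Pgr, Hoxa10, Hoxa11, Epcam and Myh11 were detected in all 6 samples. Transcripts assigned to Gnaz held the most counts when all libraries of the series were summed. Their share ran from 5.11% in estrus replicate 5 to 9.68% in estrus replicate 3.

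After removal of genes with low counts, 12052 genes were tested, and 911 of them (7.56%) passed a Benjamini-Hochberg adjusted p under 0.05 in edgeR's quasi-likelihood test. In metestrus 341 genes were higher (2.83% of those tested) and 570 were lower (4.73%). The lower genes also moved further. Their median fold was 2.31 against 1.9 for the higher genes, and 130 of them differed at least 4-fold, against 35 of the higher genes. Over the whole of the tested genes the log2 fold change had a median of 0.01. In 898 of the 911 genes all 3 metestrus values lay on one side of all 3 estrus values, whereas the groups did not overlap in 25.4% of all tested genes. The 13 other genes were all higher in metestrus, and in each of them metestrus replicate 5 was the sample that reached into the estrus range.

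**Figure D1:**
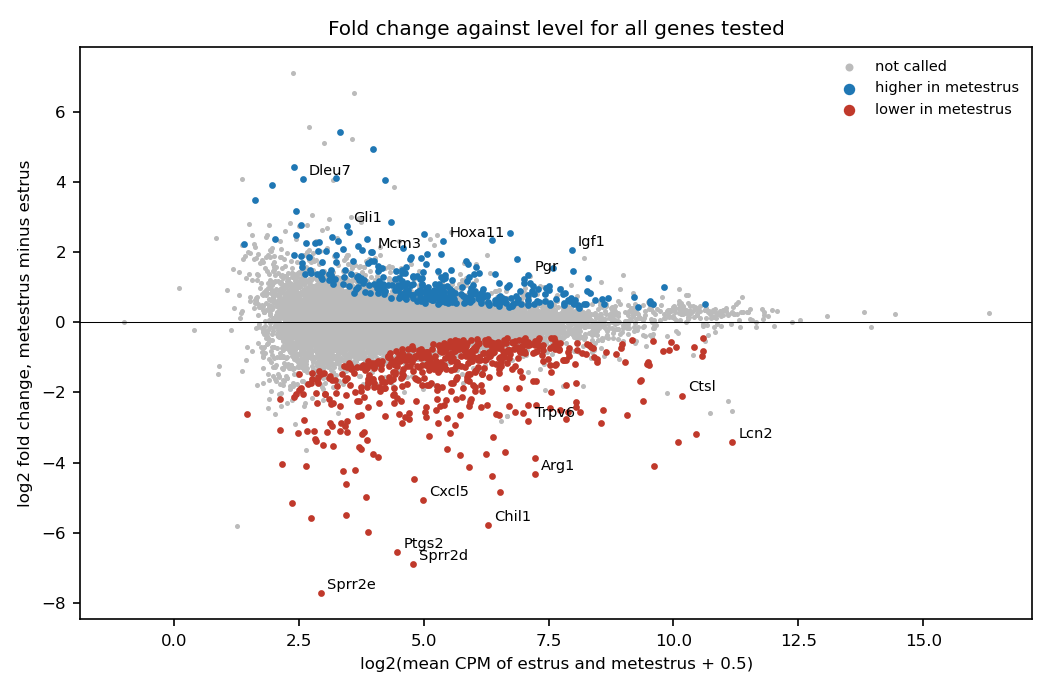
Each point is 1 of the 12052 tested genes, with log2 of the mean CPM of the 6 samples plus 0.5 on the horizontal axis and the log2 fold change, metestrus minus estrus, on the vertical axis. The 341 genes that were higher (blue) and the 570 that were lower (red) are coloured, and the largest differences among the called genes are decreases.

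The number of genes passing depended strongly on single libraries. Leaving out estrus replicate 3, 4 or 5 gave 515, 431 or 341 genes, while leaving out metestrus replicate 6 gave 456 and leaving out metestrus replicate 5 gave 1364. In all 6 fits that each left out 1 of these libraries, 257 genes (2.13% of those tested) passed, 71 of them higher and 186 lower. The main fit took 1 spread per gene over all stages, although metestrus was the widest, so its p-values may be too small for this comparison. A fit to the 6 samples alone, which takes no information on spread from the narrower proestrus and diestrus samples, gave 299 genes, of which 297 were among the 911. The genes described first below were the 14 of each direction with the largest fold change that passed in all 6 of these fits, did not overlap and averaged at least 10 CPM in the higher group. For the lists of related genes, examples were called members with large fold changes, and members that did not pass, as well as Ihh, Epcam, Ano1, Gapdh, Adgre1 and called members given by name alone, were chosen after their values were seen.

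The steepest decreases were in genes of the estrus epithelium and of inflammatory signalling. The chemokines of the Cxcl family and the Sprr2 family stood in this group with several members each. Start regions are printed for some of these members only, each of which holds the marked motifs. Cxcl1 and Cxcl2 are chemokines that draw neutrophils and are known targets of NF-kappaB. The sequences run 5′ to 3′ on the plus strand and lie around the annotated start, with capitals marking letters that match the NF-kappaB motif (GGGA and TTCC with any 2 bases between, on either strand, with a pair of overlapping matches in each; GRCm38.p6, RefSeq promoters, chr5:90891125-90891244 and chr5:90903779-90903898).
Cxcl1: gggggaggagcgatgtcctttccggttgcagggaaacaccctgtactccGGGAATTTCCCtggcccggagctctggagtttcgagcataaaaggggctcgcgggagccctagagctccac
Cxcl2: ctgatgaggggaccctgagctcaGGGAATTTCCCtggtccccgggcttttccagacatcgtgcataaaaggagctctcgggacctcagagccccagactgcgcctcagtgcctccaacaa

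The small proline-rich proteins of the Sprr2 family are cross-linked parts of the epithelial surface and are strongly induced by estrogen in the uterus. The start regions of 3 neighbouring members on chromosome 3 are printed, with capitals marking TGANTCA (the AP-1 motif) and TATAAA (the TATA box). They lie at chr3:92316505-92316704, chr3:92338940-92339139 and chr3:92351943-92352142 on the plus strand of GRCm38.p6 (RefSeq).
Sprr2b: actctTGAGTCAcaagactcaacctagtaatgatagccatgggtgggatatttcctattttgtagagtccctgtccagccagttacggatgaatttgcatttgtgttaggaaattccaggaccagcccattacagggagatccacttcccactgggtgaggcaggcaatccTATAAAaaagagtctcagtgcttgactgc
Sprr2d: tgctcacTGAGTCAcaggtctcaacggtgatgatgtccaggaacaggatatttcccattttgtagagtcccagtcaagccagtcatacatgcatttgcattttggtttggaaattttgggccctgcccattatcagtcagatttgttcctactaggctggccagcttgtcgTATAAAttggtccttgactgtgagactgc
Sprr2e: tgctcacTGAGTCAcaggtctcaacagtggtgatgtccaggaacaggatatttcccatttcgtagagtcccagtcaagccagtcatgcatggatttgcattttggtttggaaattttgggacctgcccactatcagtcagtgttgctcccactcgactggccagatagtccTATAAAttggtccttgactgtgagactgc

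Compared position by position without gaps, Sprr2d and Sprr2e were identical at 184 of 200 bases (92.0%), and Sprr2b matched them at 60% and 61%. The AP-1 motif began at -195 from the start in Sprr2b and at -193 in Sprr2d and Sprr2e. A comparison without gaps can therefore understate the likeness of Sprr2b. These motifs were looked for after the expression values were known, in the 250 bases before each start and on both strands. Cxcl5 and Sprr2a3, which fell as well, are not printed. No match to the marked motifs was recorded for them, which may also mean that no promoter was listed. The NF-kappaB motif was present in 3.24% of the 432 lower genes with a listed promoter, 1.14% of 264 higher genes, 1.43% of 9290 tested genes and 1.21% of all 32851 listed promoters. TGANTCA was present in 8.56%, 4.55%, 5.54% and 6.75% of the same sets, and TATAAA in 10.6%, 9.85%, 8.09% and 12.4%. The hypoxia response motif ACGTGC was present in 8.8%, 9.47%, 8.02% and 4.92%, and the GLI motif GACCACCCA in 0%, 0.379%, 0.226% and 0.225%. The estrogen response element, GGTCA and TGACC with any 3 bases between, was in none of the tested genes' windows and in 0.0639% of all promoters, which says only that these letters are rare so close to a start. A match is a description of the sequence and not evidence of binding.

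Each of these Sprr2 genes was detected in every estrus uterus and was at or near 0 in at least 1 metestrus uterus. Sprr2e (chromosome 3, 92352143 to 92353449) measured 16.1, 21.2 and 5.95 CPM in estrus replicates 3, 4 and 5 and had no count in any metestrus sample, at least 7.6-fold lower against 3 counts per library (adjusted p = 0.00277 in edgeR). Sprr2d (chromosome 3, 92339140 to 92340873) measured 49.5, 84.1 and 27.9 CPM in estrus and 1.04, 0 and 0 in metestrus replicates 5, 6 and 7. The pooled ratio of Sprr2d was 135, with a 95% exact counting interval of 36.9 to 1118. Metestrus replicate 5 held the only Sprr2d counts of its stage. Sprr2b measured 45.8, 303 and 123 CPM against 15.6, 1.26 and 4.77, a log2 fold change of -4.37 ± 0.67 (SE; edgeR adjusted p = 0.00215), and its highest estrus value came from replicate 4, without which the change was -3.45. Sprr2a3 measured 165, 190 and 178 CPM against 12.4, 5.05 and 0. Without metestrus replicate 5 the changes of Sprr2b and Sprr2a3 were -5.65 and -6.14, the latter in place of -4.85. Sprr2d shares 10.3%, Sprr2e 21.1%, Sprr2b 31.9% and Sprr2a3 73.6% of its transcript sequence with other genes, so the split of reads within the family is uncertain. With stage-specific weights in limma-voom, which give the wide metestrus samples less weight, the adjusted p-values of Sprr2b, Sprr2d and Sprr2e were 0.126, 0.071 and 0.0606.

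The list of estrogen-induced epithelial genes, to which the Sprr2 genes belong, had 26 tested members, of which 14 were lower, 2 were higher and 10 did not pass. Its median log2 fold change was -2.23. Besides the Sprr2 genes, Muc1, a mucin of the cell surface, measured 91.6, 94.4 and 116 CPM in estrus against 37.9, 18.3 and 8.35 in metestrus, a log2 fold change of -2.2 ± 0.4 (SE; edgeR adjusted p = 0.00594), or -2.93 without metestrus replicate 5. Lcn2, the iron-binding defence protein lipocalin 2, measured 3159, 4406 and 5089 CPM against 976, 167 and 42.3. Its log2 fold change was -3.41 ± 0.79 (SE; edgeR adjusted p = 0.0212), and the change was -5.33 without metestrus replicate 5. The call of Lcn2 was lost without estrus replicate 4 (adjusted p = 0.0552), estrus replicate 5 (0.0682) or metestrus replicate 6 (0.0745). Ltf, encoding lactoferrin, and C3, the central complement component, had log2 fold changes of -2.6 ± 0.89 and -2.25 ± 0.73 (SE) and did not pass (edgeR adjusted p = 0.0919 and 0.0778). In both, metestrus replicate 5 stood far above the other two metestrus samples, at 1259 against 102 and 82.9 CPM for Ltf and 1893 against 161 and 221 for C3. The 2 higher members of the list were Pgr and Igf1, which are made mainly by stroma and muscle.

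Among the genes of inflammatory signalling, Ptgs2 (chromosome 1, 150100031 to 150108227), the inducible cyclooxygenase of prostaglandin synthesis, measured 34.6, 65.8 and 27.9 CPM in estrus and 0.519, 0.631 and 0 in metestrus. The pooled ratio of Ptgs2 was 109, with a counting interval of 29.7 to 901. The groups lay far apart, with 232 counts in the 3 estrus libraries and 2 in the 3 metestrus libraries. Cxcl1 measured 9.28, 21.7 and 5.95 CPM against 0.519, 0 and 0, and Cxcl2 measured 16.7, 30.9 and 13.7 against 0.519, 0.631 and 0 (edgeR adjusted p = 0.00598 and 0.00224). Their pooled ratios were 61.7 (interval 10.7 to 2475) and 51.9 (interval 14 to 434). Cxcl5, a neighbouring chemokine of the same class, measured 32.2, 115 and 34.8 CPM against 2.59, 1.26 and 1.19, a log2 fold change of -5.08 ± 0.74 (SE; edgeR adjusted p = 0.00146), or -4.19 without estrus replicate 4. Cxcl2 shares 7.59% of its sequence with Cxcl3. With stage weights in limma-voom the calls of Ptgs2, Cxcl1 and Cxcl5 were lost (adjusted p = 0.0523, 0.0747 and 0.128).

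Of 18 tested chemokines 6 were lower and 1, Ccl21a, was higher, with a median log2 fold change of -0.69. Ccl21a is uncertain, since it shares 80.6% of its sequence with Gm21541, and it passed in 2 of the 6 fits without 1 library. The list of NF-kappaB and innate inflammation genes had 7 of 20 tested members lower and none higher (median -0.73), and 5 of the 7 passed in all 6 fits without 1 library. Nfkbiz, a nuclear regulator of NF-kappaB targets, measured 43.3, 48.6 and 30.7 CPM in estrus against 7.78, 3.16 and 5.37 in metestrus (log2 fold change -2.86 ± 0.29, SE; edgeR adjusted p = 0.000161). Cells that respond to these chemokines were looked for through their markers. In the neutrophil list only Lcn2 and Mmp9 of 8 tested genes passed, both lower, and neither passed in all 6 fits without 1 library. Epithelium also makes Lcn2. The granule genes Elane, Camp and Ngp had no count in any of the 6 samples, and S100a8 measured 2.47, 14.9 and 0.916 CPM in estrus and 0, 4.42 and 0 in metestrus (edgeR adjusted p = 0.342). The summed level of the neutrophil list was 5665 to 9207 CPM in estrus and 141 to 2260 in metestrus, most of it Lcn2 and Ltf.

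The macrophage list had 4 of 19 tested members lower and none higher, with a median of -0.55. Cd14, the lipopolysaccharide co-receptor, measured 92.2, 117 and 146 CPM in estrus against 27.5, 13.3 and 25.0 in metestrus, a log2 fold change of -2.42 ± 0.24 (SE; edgeR adjusted p = 0.000153). Spp1, the secreted phosphoprotein osteopontin, which shares 14.3% of its sequence with other genes, measured 42.1, 165 and 215 CPM against 17.6, 5.05 and 7.75 (edgeR adjusted p = 0.00216). Its log2 fold change of -3.75 was -4.45 without metestrus replicate 5, and its call was lost with stage weights in limma-voom (adjusted p = 0.0806). Adgre1, which encodes the macrophage antigen F4/80, measured 32.8, 32.6 and 31.6 CPM in estrus and 10.9, 15.1 and 40.5 in metestrus and did not pass. In whole tissue, fewer cells of a type and less RNA of a gene per cell cannot be told apart. All 20 tested interferon response genes had negative log2 fold changes, with a median of -0.82, yet none passed in edgeR's quasi-likelihood test. The mean of this list differed from the estrus mean by -0.78, -1.5 and -0.31 log2 units in metestrus replicates 5, 6 and 7. Estrus replicate 3 stood at -0.35, so metestrus replicate 7 lay within the estrus range. At an unadjusted p under 0.05 there were 10, DESeq2 called 1 and limma-voom 2.

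Other genes with steep decreases encode enzymes, channels and secreted proteins. Arg1 (chromosome 10, 24915221 to 24927484), arginase 1, measured 217, 251 and 384 CPM in estrus against 33.2, 3.16 and 3.58 in metestrus, a log2 fold change of -4.34 ± 0.53 (SE; edgeR adjusted p = 0.00047). Without metestrus replicate 5, the sample nearest to estrus, the change in Arg1 was -6.37. Uox (chromosome 3, 146570426 to 146632305), urate oxidase, measured 34.6, 55.5 and 67.8 CPM against 3.11, 3.79 and 0 (log2 fold change -4.48 ± 0.59, SE; edgeR adjusted p = 0.00076). Kcne1, a regulatory subunit of potassium channels, measured 15.5, 13.7 and 30.7 CPM against 1.56, 0.631 and 0, a pooled ratio of 27.1 with a counting interval of 10.3 to 101, and lost its call with stage weights in limma-voom (adjusted p = 0.0568). The groups did not overlap in any of these genes, as the rule that named them required. The lowest estrus value of each exceeded the highest metestrus value by several fold.

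Chil1, a secreted chitinase-like glycoprotein, was the most uneven of the strongly lower genes, at 20.4, 343 and 92.5 CPM in estrus against 2.07, 0.631 and 5.37 in metestrus. Its log2 fold change was -5.78 ± 0.95 (SE; edgeR adjusted p = 0.00327) and -4.34 without estrus replicate 4, and limma-voom did not call it (adjusted p = 0.2). Clca3a2, which shares 40.6% of its sequence with other genes and is uncertain for that reason, measured 29.7, 38.3 and 12.8 CPM against 0, 0.631 and 1.79, and lost its call with stage weights in limma-voom (adjusted p = 0.107). Trim15, a ubiquitin ligase family member, measured 19.2, 29.2 and 19.2 CPM against 2.59, 0.631 and 0, with an edgeR adjusted p of 0.00371 and a log2 fold change of -4.22, or -5.91 without metestrus replicate 5.

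The ion and fluid transport list had 6 of 16 tested members lower and 1 higher, with a median of -1.1. Car2, carbonic anhydrase 2, measured 828, 1005 and 1493 CPM in estrus against 286, 343 and 75.7 in metestrus, a log2 fold change of -2.24 ± 0.4 (SE; edgeR adjusted p = 0.00573), and did not pass in the fit to the 6 samples alone (adjusted p = 0.0513). Fxyd4, a regulator of the sodium pump, measured 208, 194 and 275 CPM against 58.1, 50.5 and 23.8 (log2 fold change -2.35 ± 0.34, SE; edgeR adjusted p = 0.00145). The chloride channel gene Ano1 went the other way, from 107, 131 and 122 CPM to 303, 170 and 262.

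Of 23 tested markers of the luminal epithelium 11 were lower, 1, Sox17, was higher and 11 did not pass, and the median log2 fold change was -0.92. The count of lower markers ran from 5, without estrus replicate 5, to 15, without metestrus replicate 5. Elf3, an epithelial transcription factor, measured 299, 284 and 349 CPM against 91.8, 62.5 and 16.1 (log2 fold change -2.44 ± 0.38, SE; edgeR adjusted p = 0.0022). Epcam, a surface protein of most epithelia, measured 316, 454 and 418 CPM against 290, 181 and 156, a log2 fold change of -0.92 ± 0.25 (SE; edgeR adjusted p = 0.0428), and kept its call in 2 of the 6 fits without 1 library. The keratins Krt8 and Krt18 had log2 fold changes of -0.85 ± 0.29 and -0.27 ± 0.16 (SE) and did not pass (edgeR adjusted p = 0.09 and 0.321). Of 9 tested markers of uterine glands 7 had positive log2 fold changes, with a median of 0.56. Only 1 gland marker passed, Sox9, which was lower and kept its call in 1 of the 6 fits without 1 library. The laminin genes Lama3 and Lama5 were among the 5 of 20 basement membrane genes that were lower. Lama5 measured 50.1, 53.2 and 53.1 CPM against 22.3, 20.8 and 22.7 (edgeR adjusted p = 0.000621).

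Markers of neighbouring tissues that a dissected uterus can carry were summed as well. The ciliated oviduct list summed to 52.2 to 61.9 CPM in estrus and 20.2 to 30.3 in metestrus without overlap, with Sntn and Mcidas at 0 in all 6 samples. Of its 2 tested members edgeR called 0, DESeq2 1 and limma-voom 1, and 1 had an unadjusted p under 0.05. Krt5, Krt14, Krt6a and Sprr3 of the stratified squamous list had no count in any sample, and that list summed to 17.9 to 29.0 CPM in both stages together. Red cell genes summed to 247 to 535 CPM in estrus and to 164, 1438 and 836 in metestrus replicates 5, 6 and 7. Vaginal and cervical epithelium genes summed to 7.42 to 16.5 CPM in estrus and 0.519 to 4.42 in metestrus, with Krt6a, Sprr1b and Dsg1a at 0 in all 6 samples and 1 of 2 tested members, Serpinb5, lower. The mesothelium list summed to 215 to 331 CPM in estrus and 132 to 182 in metestrus, most of it Krt19 in estrus, and 1 of its 5 tested members, Wt1, was higher. The ovary list summed to 29.3 to 42.3 CPM in estrus and 42.9 to 78.3 in metestrus, with Fshr, Zp3 and Oosp1 at 0 and 1 of 2 tested members, Foxl2, higher. In edgeR the call of Foxl2 was lost without estrus replicate 3 or 5 (adjusted p = 0.0599 and 0.0798) and without metestrus replicate 6 (0.0607). With stage weights in limma-voom it was lost too (adjusted p = 0.0559). The sums of adipocyte and skeletal muscle genes overlapped between the stages, at 148 to 264 and 39.3 to 141 CPM. In each of these 2 lists 1 of 4 tested members was lower, and neither call held in all 6 fits without 1 library. Whether the RNA of these markers came from the named tissues or from the uterus itself was not tested. The part of such tissue in the epithelial differences was not tested.

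Genes of glycolysis and of the response to low oxygen were often lower. Of 25 tested members 13 were lower and none was higher, with a median log2 fold change of -0.67, and 7 passed in all 6 fits without 1 library. Egln3, an oxygen-sensing prolyl hydroxylase, measured 137, 177 and 138 CPM in estrus against 34.2, 7.57 and 2.98 in metestrus (log2 fold change -3.28 ± 0.48, SE; edgeR adjusted p = 0.00146), or -4.83 without metestrus replicate 5. Hk2, hexokinase 2, measured 86.6, 102 and 76.9 CPM against 24.4, 19.6 and 16.1 (log2 fold change -2.13 ± 0.22, SE; edgeR adjusted p = 0.000153). Slc16a3, which exports lactate, measured 39.6, 54.9 and 32.1 CPM against 11.9, 4.42 and 2.38, with a log2 fold change of -2.7, or -3.61 without metestrus replicate 5. Abundant glycolytic enzymes moved less, and Gapdh, often used as a reference transcript, measured 936, 908 and 876 CPM in estrus against 579, 670 and 631 in metestrus, a log2 fold change of -0.53 ± 0.12 (SE; edgeR adjusted p = 0.017). Of Gapdh's sequence 28.1% is shared with other genes.

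Further lower genes came from several smaller groups. Ctsl, the lysosomal protease cathepsin L, measured 1420, 2124 and 2031 CPM in estrus against 608, 278 and 420 in metestrus (log2 fold change -2.09 ± 0.25, SE; edgeR adjusted p = 0.000418), and shares 28.2% of its sequence with other genes. Of 22 tested matrix proteases and inhibitors 4 were lower and 1, Plat, was higher. Stc2, an inhibitor of the protease that frees insulin-like growth factors, measured 58.1, 65.2 and 56.3 CPM against 22.3, 15.1 and 12.5 (edgeR adjusted p = 0.000311). Among immediate early genes 5 of 20 were lower, including Btg2, Dusp6 and Fosl2, while Fos, Jun and Egr1 overlapped between the stages and did not pass. Of 15 tested clock genes 1 passed, Bhlhe40, at 117, 142 and 126 CPM against 48.2, 19.6 and 5.96, with a log2 fold change of -2.35, or -3.34 without metestrus replicate 5.

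Prostaglandin, steroid and complement genes changed in both directions or in part. Cbr2, a carbonyl reductase, measured 603, 623 and 740 CPM in estrus against 215, 91.5 and 36.4 in metestrus, a log2 fold change of -2.51, or -3.36 without metestrus replicate 5. It was 1 of 3 lower and 2 higher members among 18 tested prostaglandin genes. Hsd17b2, which oxidises estradiol to estrone, measured 11.8, 22.3 and 22.9 CPM against 2.07, 0 and 0.596 (log2 fold change -4.23 ± 0.81, SE; edgeR adjusted p = 0.0108). The change was -5.68 without metestrus replicate 5, and the call was lost without estrus replicate 5 (adjusted p = 0.0537), with stage weights (0.0804) and with counts scaled from TPM (0.0572). Hsd11b2, which inactivates glucocorticoids, measured 54.4, 12.0 and 27.5 CPM against 46.2, 356 and 141, and metestrus replicate 5 lay within the estrus range (log2 fold change 2.54; edgeR adjusted p = 0.0211). The call of Hsd11b2 was lost without estrus replicate 4 or 5 (adjusted p = 0.0772 and 0.0879), without metestrus replicate 6 (0.0788, log2 fold change 1.61), in limma-voom (0.0567), with counts scaled from TPM (0.0536) and in the 6 samples alone (0.0967). The steroid receptor and metabolism list had 3 members higher and 2 lower of 17.

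The complement list had 4 of 16 tested members lower and none higher, with a median of -0.36. Cfb, complement factor B, measured 488, 792 and 714 CPM in estrus against 213, 31.6 and 22.7 in metestrus (edgeR adjusted p = 0.0164), and is uncertain because 75.5% of its sequence is shared with Gm20547, which overlaps it. The call of Cfb was lost without estrus replicate 4 or 5 or metestrus replicate 6 (adjusted p = 0.0525, 0.0538 and 0.0536), and its log2 fold change of -2.88 was -4.62 without metestrus replicate 5. None of the complement genes passed in all 6 fits without 1 library. Trpv6, the epithelial calcium channel, measured 288, 216 and 212 CPM against 39.9, 16.4 and 43.5 (log2 fold change -2.83 ± 0.34, SE; edgeR adjusted p = 0.000418), and was 1 of 2 lower genes among 9 of calcium transport.

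Of 20 tested smooth muscle genes 5 were lower and none was higher, with a median of -0.34, and 1 was lower without any one of the 3 estrus libraries. Myh11, smooth muscle myosin, measured 2179, 1901 and 1959 CPM in estrus against 770, 958 and 1375 in metestrus (log2 fold change -0.96 ± 0.24, SE; edgeR adjusted p = 0.0271). The call of Myh11 was lost without any one estrus library (adjusted p = 0.0798, 0.071 and 0.0749 without replicates 3, 4 and 5) and without metestrus replicate 6 (0.0929). Acta2 measured 3133, 2291 and 2633 CPM against 2143, 3160 and 1991 and did not pass. None of the 20 muscle genes passed in all 6 fits without 1 library.

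**Figure D2:**
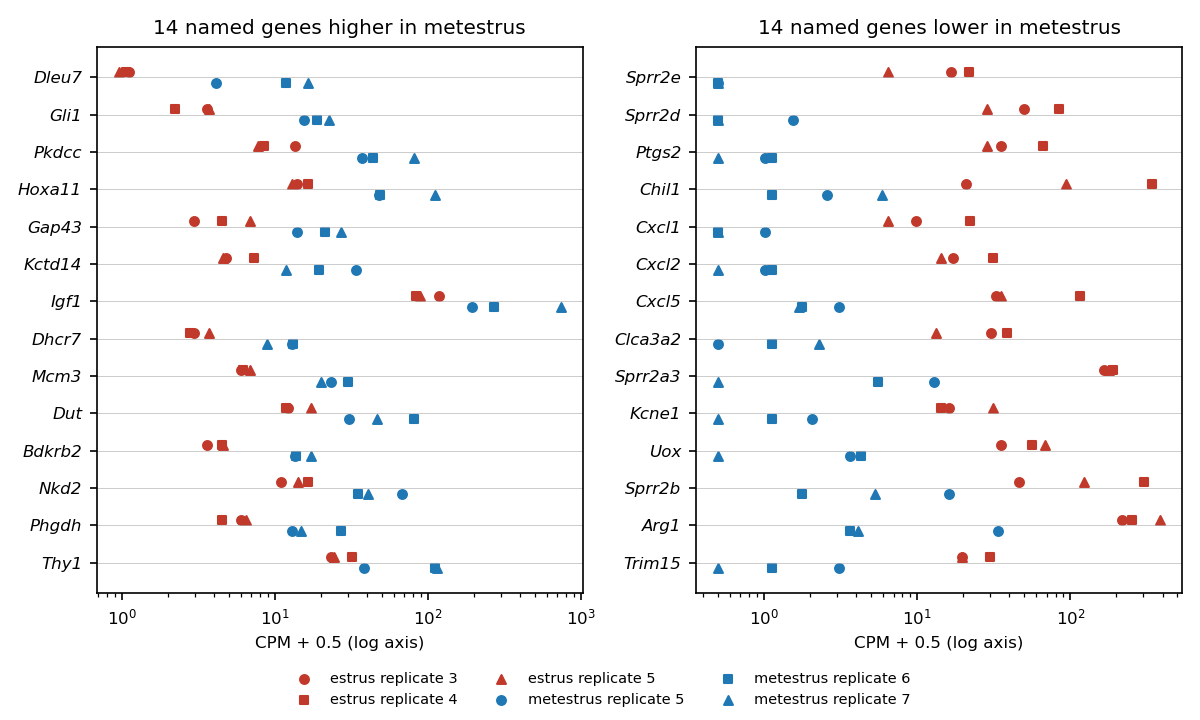
CPM plus 0.5 on a log axis in each of the 3 estrus (red) and 3 metestrus (blue) samples, with the symbol shape giving the replicate, for the 14 higher and 14 lower genes with the largest fold changes that passed without any 1 library. Only genes whose groups did not overlap were eligible, so red and blue points are separate in each row by that choice. In the lower genes metestrus replicate 5 is often the blue point nearest to estrus, as in Arg1 at 33.2 CPM against 3.16 and 3.58.

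Genes of the progesterone response were higher in metestrus. Of 21 tested members 10 were higher, none was lower and 11 did not pass, and 20 of the 21 log2 fold changes were positive, with a median of 1.81. The count of higher members ran from 6, without estrus replicate 5, to 13, without metestrus replicate 5, and was 8 without metestrus replicate 7. Pgr, the progesterone receptor itself, measured 77.9, 71.5 and 81.1 CPM in estrus against 171, 283 and 134 in metestrus, a log2 fold change of 1.35 ± 0.28 (SE; edgeR adjusted p = 0.0117). Esr1, the estrogen receptor, measured 207, 254 and 242 CPM against 215, 288 and 203, with a log2 fold change of 0 ± 0.15 (SE). Fkbp4, a co-chaperone of the progesterone receptor, measured 141, 91.5 and 124 CPM against 267, 204 and 222 (edgeR adjusted p = 0.0061).

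Indian hedgehog signalling links the epithelium, which makes the ligand, to the stroma, where Ptch1 is the receptor and Gli1 a transcription factor and target. The ligand gene Ihh, named here after its values were seen because its mean was under 10 CPM, measured 0.619, 0 and 0.458 CPM in estrus and 3.63, 5.68 and 10.1 in metestrus, with an edgeR adjusted p of 0.0052. Ptch1 measured 4.95, 6.86 and 13.7 CPM against 22.3, 20.8 and 72.1 (edgeR adjusted p = 0.0176), and passed in 4 of the 6 fits without 1 library. Gli1 (chromosome 10, 127329882 to 127341974) measured 3.09, 1.72 and 3.21 CPM against 15.0, 18.3 and 22.1, a log2 fold change of 2.74 ± 0.34 (SE; edgeR adjusted p = 0.000523). The groups did not overlap in any of the 3 genes, and the call of Gli1 was kept under every alternative tried. Gli1 lies opposite Arhgap9 and Gm47200, and 5.3% of its transcript sequence is shared with other genes, most of it with Gm47200.

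Hoxa10 and Hoxa11, homeobox genes of the uterine stroma, were both higher. Hoxa10 measured 103, 101 and 91.6 CPM in estrus against 241, 227 and 396 in metestrus (log2 fold change 1.55 ± 0.19, SE; edgeR adjusted p = 0.000418). Hoxa11 (chromosome 6, 52242106 to 52245810) measured 13.6, 16.0 and 12.4 CPM against 47.7, 48.0 and 111 (log2 fold change 2.3 ± 0.31, SE; edgeR adjusted p = 0.000965) and is uncertain because it shares 33.9% of its sequence with its antisense gene Hoxa11os. Metestrus replicate 7 was the highest sample for both. The largest fold change of the progesterone list, in Fst, the activin inhibitor follistatin, rested on that sample too, with 6.22, 12.0 and 84.7 CPM in metestrus against 1.86, 1.14 and 2.75 in estrus. The call of Fst (edgeR adjusted p = 0.0411) was lost without metestrus replicate 7 (adjusted p = 0.185, log2 fold change 2.17 in place of 4.06) and without estrus replicates 3 (0.112), 4 (0.125) and 5 (0.118).

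Of the 17 tested stroma genes 6 were higher and 1, Pdgfra, was lower, with a median of 0.43. Igf1 (chromosome 10, 87858265 to 87937042), the growth factor by which stroma acts on epithelium, measured 118, 82.9 and 88.8 CPM in estrus against 194, 270 and 739 in metestrus. Its log2 fold change was 2.06 ± 0.4 (SE; edgeR adjusted p = 0.0091). Without metestrus replicate 7 the change was 1.29, and with counts scaled from TPM it was 1.18 and did not pass (adjusted p = 0.144). Igfbp4, a binding protein of Igf1, measured 535, 639 and 615 CPM against 984, 1601 and 1003 (log2 fold change 1.0 ± 0.2, SE; edgeR adjusted p = 0.01), and was not called in the 6 samples alone (adjusted p = 0.0557). Thy1, a surface protein of fibroblasts, measured 22.9, 31.5 and 23.8 CPM against 37.9, 111 and 114, with metestrus replicate 5 the nearest to estrus.

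The Wnt list went both ways, with 3 higher and 2 lower of 24 tested. Lef1, a transcription factor of the pathway, measured 5.57, 8.01 and 6.41 CPM in estrus against 17.6, 16.4 and 31.6 in metestrus, and Sfrp1, a secreted inhibitor, measured 22.3, 24.0 and 24.3 against 47.7, 37.9 and 65.0 (edgeR adjusted p = 0.0212 and 0.0246). Rspo3, an enhancer of Wnt signals, went from 259, 251 and 213 CPM to 169, 77 and 102 (edgeR adjusted p = 0.0185). The groups were apart in each of these 3 genes, but no member of the list passed in all 6 fits without 1 library. Lef1 lost its call without estrus replicate 3 or 5 or metestrus replicate 7 (adjusted p = 0.0709, 0.0815 and 0.0519), Sfrp1 without estrus replicate 3, 4 or 5 or metestrus replicate 7 (0.0781, 0.0658, 0.0775 and 0.0607), and Rspo3 passed in 3 of the 6.

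Genes of other roles completed the higher set. Pkdcc (chromosome 17, 83215292 to 83225070), a secreted kinase of the matrix, measured 13.0, 8.01 and 7.33 CPM in estrus against 36.8, 43.6 and 81.1 in metestrus (log2 fold change 2.52 ± 0.37, SE; edgeR adjusted p = 0.00146). Nkd2, an inhibitor of Wnt signalling, measured 10.5, 16.0 and 13.7 CPM against 67.4, 34.7 and 40.5 (log2 fold change 1.82 ± 0.31, SE; edgeR adjusted p = 0.00423). Bdkrb2, the bradykinin B2 receptor, measured 3.09, 4.0 and 4.12 CPM against 13.0, 13.3 and 16.7 (edgeR adjusted p = 0.00955). These 3 genes kept their calls under every alternative tried, and their metestrus samples were alike in Bdkrb2 and spread about 2-fold in the other pair.

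Gap43, a growth-associated protein of nerve endings, measured 2.47, 4.0 and 6.41 CPM against 13.5, 20.8 and 26.8 (edgeR adjusted p = 0.00468), and Kctd14 measured 4.33, 6.86 and 4.12 against 33.7, 18.9 and 11.3 (edgeR adjusted p = 0.0066). Dhcr7, the last enzyme of cholesterol synthesis, measured 2.47, 2.29 and 3.21 CPM against 12.4, 12.6 and 8.35 (edgeR adjusted p = 0.00573), and was 1 of 2 higher genes among 23 tested for sterol synthesis. With counts scaled from TPM the call of Dhcr7 was lost (adjusted p = 0.0877). Dleu7, at under 1 CPM in every estrus sample and 3.63, 11.4 and 16.1 in metestrus, lies opposite Rnaseh2b, and Phgdh shares 56.3% of its sequence with other genes, so both are uncertain. The call of Dleu7 was lost in limma-voom (adjusted p = 0.0702) and that of Phgdh in the 6 samples alone (0.0542). Id1, a target of bone morphogenetic protein signals, measured 16.1, 17.2 and 21.1 CPM against 39.4, 41.7 and 50.1 (edgeR adjusted p = 0.00215), and was 1 of 5 higher members among 24 tested genes of the TGF-beta, activin and BMP list, which had none lower.

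Of 22 tested ribosome biogenesis genes 6 were higher and none was lower. All 22 log2 fold changes were positive, with a median of 0.72, and 3 genes passed in all 6 fits without 1 library. Nop58, a core protein of small nucleolar ribonucleoproteins, measured 131, 119 and 123 CPM in estrus against 217, 294 and 201 in metestrus (log2 fold change 0.93 ± 0.15, SE; edgeR adjusted p = 0.00257). Nop56, its partner, measured 56.3, 77.2 and 68.2 CPM against 125, 160 and 117, with 22.4% of its sequence shared. The genes of the cytosolic ribosome itself had 33 positive log2 fold changes among 34, with a median of 0.31, and none passed in edgeR. The mean of this list differed from the estrus mean by -0.09, 0.2 and 0.63 log2 units in metestrus replicates 5, 6 and 7. Replicate 5 thus did not share the rise, and replicate 7 stood highest. At an unadjusted p under 0.05 there were 4, DESeq2 called 1 and limma-voom 0, and edgeR called 5 without metestrus replicate 5.

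DNA replication and mitosis genes both moved unevenly between the metestrus samples, the mitosis genes more so. Of 37 tested replication genes 5 were higher and 1 was lower, with a median of 0.74. Mcm3 (chromosome 1, 20802968 to 20820312), part of the replicative helicase, measured 5.57, 5.72 and 6.41 CPM in estrus against 22.8, 29.7 and 19.7 in metestrus, a log2 fold change of 2.0 ± 0.24 (SE; edgeR adjusted p = 0.000418). Dut, which clears dUTP, measured 11.8, 11.4 and 16.9 CPM against 30.1, 80.8 and 46.5 (log2 fold change 1.94 ± 0.32, SE; edgeR adjusted p = 0.00327). All 3 metestrus samples were above estrus for both genes, as the rule that named them required. Averaged over the replication list, metestrus replicates 5, 6 and 7 stood 0.15, 1.08 and 0.42 log2 units above the estrus mean. The lower member was Cdc45, at 108, 91.5 and 74.2 CPM against 33.2, 26.5 and 24.4, and it shares 6.82% of its sequence, mainly with Ufd1, which lies opposite.

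Of 33 tested mitosis genes 1 passed, Ccna2, although the median log2 fold change was 1.14, larger than that of the replication genes. The call of Ccna2 (edgeR adjusted p = 0.0251) was lost without metestrus replicate 6 (adjusted p = 0.0831) and without estrus replicates 3 (0.061), 4 (0.0699) and 5 (0.0978). Without metestrus replicate 5, 13 of the 33 passed, all higher. The proliferation marker Mki67 measured 41.4, 34.9 and 30.2 CPM in estrus and 3.11, 109 and 42.3 in metestrus, so that 1 metestrus uterus lay below all estrus uteri, 1 above all and 1 just above. Top2a measured 24.1, 24.0 and 29.8 CPM against 11.9, 171 and 72.7 and did not pass (edgeR adjusted p = 0.0989). Averaged over the mitosis list, metestrus replicate 5 stood 1.0 log2 units below the estrus mean, while replicates 6 and 7 stood 2.06 and 0.48 above it.

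**Figure D3:**
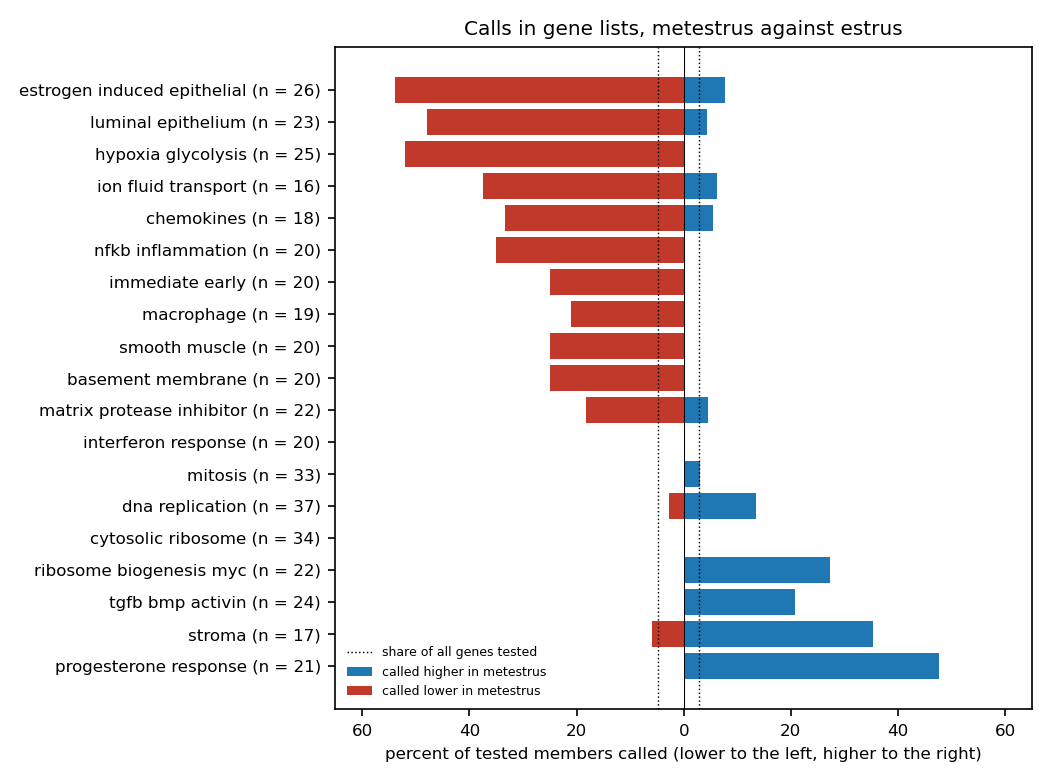
Share of the tested members of 19 gene lists that were called lower (red, to the left) or higher (blue, to the right) in metestrus, in percent, with dotted lines at the shares over all tested genes (4.73% lower, 2.83% higher). The estrogen-induced, hypoxia and luminal epithelium lists reach furthest to the left and the progesterone list furthest to the right, while the interferon and cytosolic ribosome lists have no bar.

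The 3 metestrus uteri lay further from each other than the 3 uteri of any other stage. Their mean distance over the 500 most variable genes was 46.3 in log2 CPM units, against 29.3 in estrus, a difference of 17.0 that did not pass an exact two-sided permutation test (p = 0.2, where 20 splits allow no p under 0.1). The biological coefficient of variation, the relative spread of a gene between samples beyond counting noise, was 30.5% in metestrus and 16.6% in estrus, 15.1% in proestrus and 17.4% in diestrus. Estimated over all stages together, as in the main fit, it was 20.6%. The SD of log2 CPM was above 1 in 6.05% of tested genes in metestrus and in 1.51% in estrus. As whole profiles the stages had a pseudo-F of 3.9, 49.4% of the squared distance lying between them (exact permutation p = 0.1, the smallest that 10 partitions can give). Without estrus replicate 4 or 5 the pseudo-F was 2.8 or 2.74, and the exact permutation p was 0.2 in both cases.

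To place each uterus, its profile was projected on a line from the estrus mean, at 0, to the diestrus mean, at 1, using 3496 genes that differed between diestrus and estrus in a fit without metestrus samples. Metestrus replicate 5 lay at 0.45, replicate 7 at 0.70 and replicate 6 at 0.78. The estrus samples, each placed on a line made without it, lay at 0.12, 0.05 and 0.03 and the diestrus samples at 0.88, 0.99 and 0.90. Every metestrus uterus thus fell between the stages on either side of it, and replicate 5 was the nearest to estrus. Proestrus samples lay at 0.46 to 0.58 on the same line, so that a middle position is not particular to metestrus.

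**Figure D4:**
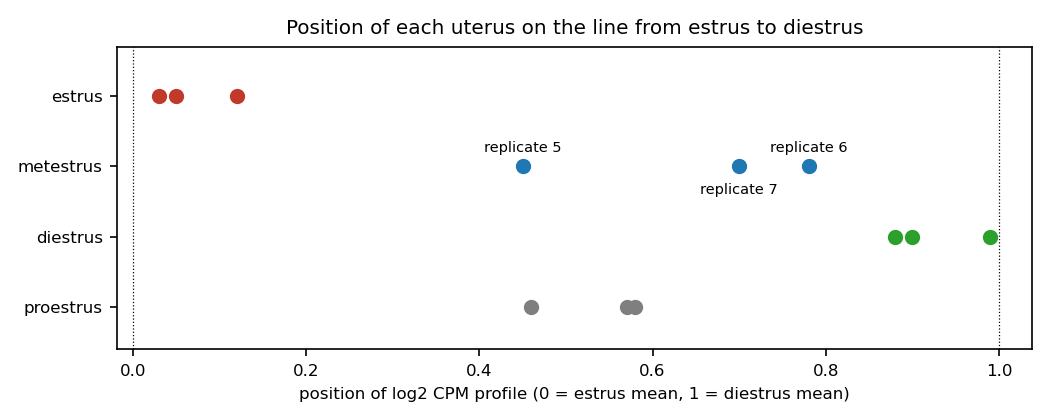
Position of each of the 12 uteri on the line from the estrus mean (0) to the diestrus mean (1), by stage, without unit, with 1 point a sample. The metestrus samples lie at 0.45, 0.70 and 0.78, between the estrus samples (0.03 to 0.12) and the diestrus samples (0.88 to 0.99).

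Distances gave a similar order for 2 of the samples. Metestrus replicate 5 had a mean distance of 43.6 to the estrus samples, 45.7 to proestrus, 47.5 to the other metestrus samples and 49.2 to diestrus, and so was not close to any group. Replicate 6 was nearest to diestrus (37.5) and proestrus (37.9) and far from estrus (56.8). Replicate 7 was nearest to diestrus (40.9) and far from both estrus (61.2) and proestrus (56.3).

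The genes with the largest SD among the metestrus uteri included some that were called and some that were not. Depp1, a gene induced by FOXO factors, measured 4.67, 3.16 and 162 CPM in metestrus replicates 5, 6 and 7, against 19.2, 25.7 and 30.2 in estrus. Angptl7, a secreted angiopoietin-like protein, measured 4.67, 8.21 and 224 CPM, and S100g, the calcium-binding protein calbindin-D9k, measured 51.3, 46.1 and 1294. Replicate 7 alone was high for these 3 genes, and none was called.

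Replicate 5 alone was high for Mmp11, a matrix metalloproteinase, at 691 CPM against 36.0 and 16.1 in replicates 6 and 7, with 288, 549 and 457 in estrus. Prap1, a secreted protein of the uterine epithelium that shares 22.4% of its sequence with Fuom, measured 1688, 48.6 and 302 CPM in metestrus against 4413, 2712 and 4717 in estrus, and Clca1, a secreted regulator of chloride channels, measured 485, 58.1 and 14.3 against 2183, 1420 and 2350. Of the 2, Clca1 passed (edgeR adjusted p = 0.0354) and Prap1 did not (0.114), although neither overlapped between the stages. Leaving out estrus sample 3, 4 or 5 ended the call of Clca1 (adjusted p = 0.0798, 0.0676 and 0.0964), as did leaving out metestrus sample 6 (0.107), and without metestrus sample 5 its log2 fold change of -3.41 was -5.78. BC048679 ran from 2.98 CPM in replicate 7 to 129 in replicate 5, and P2ry14, a receptor for UDP-glucose, was high in replicate 6 alone, at 189 CPM against 14 and 26.8.

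**Figure D5:**
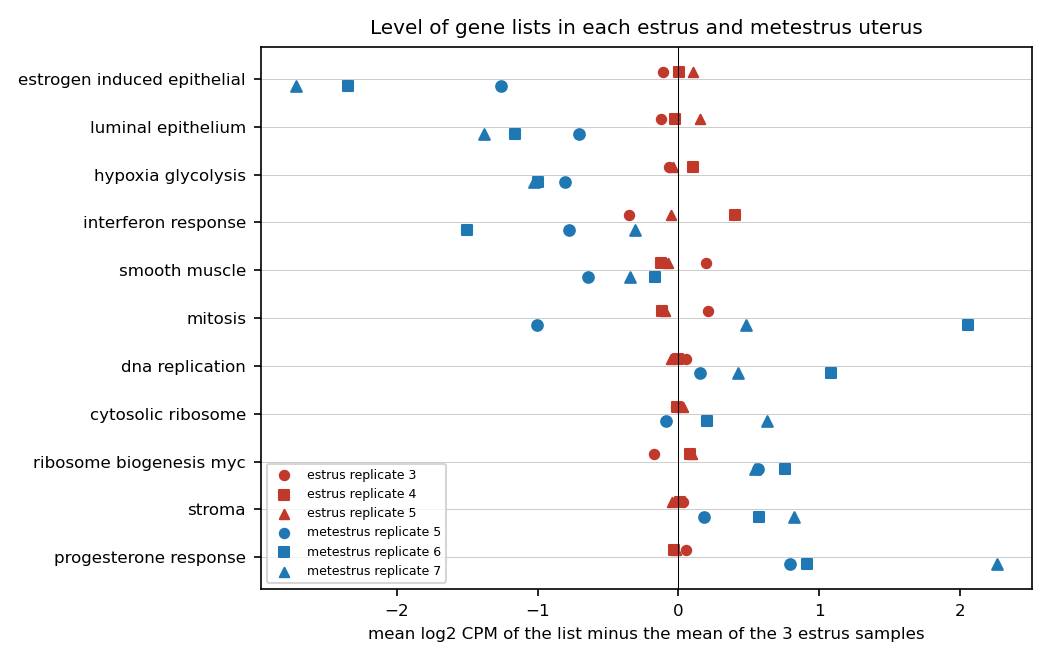
Mean log2 CPM of 11 gene lists in each sample minus the mean of the 3 estrus samples, with estrus in red, metestrus in blue and the symbol shape giving the replicate. Metestrus replicates 5, 6 and 7 lie together for hypoxia and ribosome biogenesis genes and apart for mitosis genes, where they stand at -1.0, 2.06 and 0.48.

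The lists showed which gene groups carried this spread. For hypoxia and glycolysis genes the mean of the list stood at log2 differences from estrus of -0.81, -1.0 and -1.03 in replicates 5, 6 and 7, and for ribosome biogenesis genes of 0.56, 0.75 and 0.54. For estrogen-induced epithelial genes the 3 values were -1.26, -2.35 and -2.72. For progesterone response genes they were 0.79, 0.91 and 2.26, so that replicate 7 stood apart at the top. Stroma genes stood at 0.18, 0.57 and 0.82.

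Of the 5 abundant genes nearest to no change 4 had the larger SD in metestrus and 1, Tacc1, in estrus. Col1a2, a fibrillar collagen chain, averaged 3213 ± 141 CPM in estrus and 3226 ± 1216 in metestrus (SD, n = 3 each), with a log2 fold change of 0.01 ± 0.24 (SE). Fau, a ribosomal fusion protein gene, averaged 1219 ± 5.87 and 1226 ± 277 CPM (SD, n = 3 each). Mylk, the kinase of myosin light chains, measured 838, 745 and 680 CPM in estrus and 946, 804 and 527 in metestrus, with the groups overlapping. Nsa2, a ribosome biogenesis factor, averaged 537 ± 22.4 and 544 ± 121 CPM, and Tacc1, a coiled-coil protein, averaged 766 ± 254 and 769 ± 109 CPM in estrus and metestrus (SD, n = 3 each).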

How the data were processed

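The authors deposited, per the file headers, estimated counts, TPM and effective lengths per transcript, and FastQC, kallisto and DESeq2 are named in the submitters' processing notes. The build, transcript set and use of strand are not given in the sources used here. Transcripts were matched to GENCODE M21 (GRCm38), which placed 116640 of 119414 (97.7%), and the unmatched held 0.619% to 0.774% of counts. The deposited estimated counts were summed per gene and rounded. Genes were kept by filterByExpr and tested with edgeR 4.0.16 (R 4.3.3; quasi-likelihood, TMM factors, two-sided) in 1 fit to all 12 samples with 1 coefficient per stage, and p-values were adjusted by Benjamini-Hochberg over 12052 genes. The SE is the log2 fold change over the square root of F. The script was tested on simulated data in which every stage had the same spread, so that test does not cover the wider spread of metestrus. A counting interval is the exact 95% interval of a ratio of pooled counts, and it covers counting error only, since no molecular identifiers are described.

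The members and the 51 gene lists were chosen with earlier results of these data known. Named genes were the 14 per direction described in the text, up to 4 called members of a list with the largest fold change and a mean of at least 10 CPM, the 8 genes with the largest SD over metestrus among those of at least 50 CPM, 4 genes per metestrus sample and the 5 genes of at least 500 CPM nearest to no change. Other names were chosen after their values were seen. Distances used log2 CPM with a prior count of 2 over the 500 most variable genes. Alternatives were DESeq2 1.42.0, limma 3.58.1 (voom), other scalings and filters, counts scaled from the deposited TPM of the authors, the 6 samples alone, and each sample left out. Some results are not reported here.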

Additional observations from a re-analysis of the deposited data

How the results depend on the processing

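The count of called genes depended on the libraries and on how spread was estimated. Leaving out 1 sample gave 341 to 1364 called genes, 108 to 584 higher, 233 to 780 lower and 341 to 1353 that were apart between the stages. The 6 samples alone gave 299, 76 higher, 223 lower and 299 apart. Counts scaled from TPM gave 410, 150, 260 and 402. Limma-voom with stage weights, chosen after seeing the data, gave 458, 132, 326 and 457. A mean of at least 50 counts left 377 lower genes. The causes of these shifts were not tested, beyond the fewer samples or genes that the alternatives used. With DESeq2 909 genes were called, 798 of them among the 911, and limma-voom called 843. Scaling by library totals gave 254 higher and 516 lower of 770, against 341 and 570. The mean distance between metestrus samples was 84.6 over all tested genes (59.3 in estrus), 65.4 over 2000 genes (41.0), 38.5 with a prior count of 5 (23.2) and 44.0 to 48.7 with 1 metestrus sample left out. Over 120 named genes, 2022 of 2468 values kept direction and call, 446 kept direction and lost the call, and 0 reversed. Over the lists, 335 of 1071 counts moved by more than 1.5 times. No paired analysis was possible because metestrus and estrus share only the number 5. At the depth of these libraries, genes of a few CPM rest on few counts, and the folds of genes near 0 in a stage depend on the prior count.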
